A study of Bos taurus with 5 samples.

Results

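The genes of respiratory complex I were examined in 5 cattle (Bos taurus) RNA-seq libraries. They were chosen by name, as every gene whose symbol begins with NDUF together with the mitochondrially encoded ND1, ND2, ND3, ND4, ND4L, ND5 and ND6. The rule uses names only and no measured value. The rule found 54 of the 27607 genes of the deposited table. Of these, 37 encode nuclear subunits, 7 mitochondrial subunits and 8 assembly factors with an NDUFAF name, while NDUFA4 and NDUFA4L2 are not counted among the subunits. The libraries are labelled brain, skin, lung, heart and limb, with 1 library per label and no replicates. Cells had been lysed and their RNA pre-amplified on the C1-HT microfluidic chip. No source used here gives the breed, age, sex, treatment, number of animals or number of cells behind a library. The labels did not match the markers of those tissues. Of 49 markers of neurons, keratinocytes, alveolar epithelium, cardiomyocytes and skeletal muscle, 6 had a value above 0 in the library that carries the label of their tissue, and 0 of the 10 neuronal genes were above 0 in the brain-labelled library. Of 10 fibroblast markers, 5 or 6 were above 0 in each library, with sums from 1109.9 FPKM (lung-labelled) to 3278 FPKM (heart-labelled). VIM alone gave 1010.8 and 2230 FPKM of these 2 sums. DCN, LUM, PDGFRB and THY1 of the same list were at 0 in all 5 libraries, and PDGFRA reached at most 1.57 FPKM. The list therefore does not name the cells either. Of 10 blood cell markers, at most 1 was above 0 in a library. Their part in the results was not tested. Libraries are therefore named by label only, and no value below is taken as one for a tissue.

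Complex I oxidises NADH from the breakdown of nutrients, passes the electrons along iron-sulfur clusters to ubiquinone and pumps protons across the inner mitochondrial membrane. It is built from subunits of both genomes. Its peripheral arm reaches into the matrix and holds the NADH-oxidising N module and the quinone-binding Q module. Its membrane arm holds the proton pumps, which are the mitochondrially encoded ND subunits surrounded by nuclear accessory subunits. Assembly factors help the modules form and join, and most of them leave the finished enzyme. Heart and other tissues with a high demand for ATP are known for dense mitochondria rich in this complex.

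Levels are taken as FPKM, fragments per kilobase of transcript scaled to the mapped fragments of a library, although no source names the unit. Genes can be compared per length only if the reads cover transcripts evenly, and no source used here says whether they do. Differences in level between genes can therefore reflect transcript length, which was not tested. Where 5 values follow each other, they are in the order brain-, skin-, lung-, heart- and limb-labelled library. With 1 library per label, every difference describes these libraries and carries no error and no p-value. More cells of a kind and more RNA per cell cannot be told apart. The summed values of a library lay between 1072430 and 1172798 FPKM, and 6599, 5109, 5991, 6634 and 5319 genes were above 0. The number of reads is not known, so a gene listed at 0 can lie below what a library could show.

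Complex I transcripts were among the more abundant ones in all 5 libraries. Above 0 in every library were 49 of the 54 genes, beside 9.44% of all genes in the table. A mean of 100 FPKM or more over the 5 libraries was reached by 45 of the 54. The 1358 genes of the table that reached it are called the abundant genes below, and 91.8% of them were above 0 in every library. The 5 complex I genes not found in every library were the core subunit NDUFS1, the assembly factors NDUFAF1, NDUFAF6 and NDUFAF7, and NDUFA4L2. The median of the 37 nuclear subunits stood at 426, 541, 597, 446 and 476 FPKM. Between 92.1% and 93.9% of the genes above 0 in a library lay below it. The 7 mitochondrial subunits had medians of 1703, 3381, 2945, 2203 and 1489 FPKM. Each of these medians was above the nuclear median of the same library, while ND5 alone lay below it in the brain-, skin- and limb-labelled libraries. The 8 NDUFAF factors were lower, with medians of 65.9, 54.1, 66.9, 20.1 and 45.1 FPKM. The nuclear median was thus between 6.45 (brain-labelled) and 22.2 times (heart-labelled) that of the assembly factors.

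**Figure D1:**
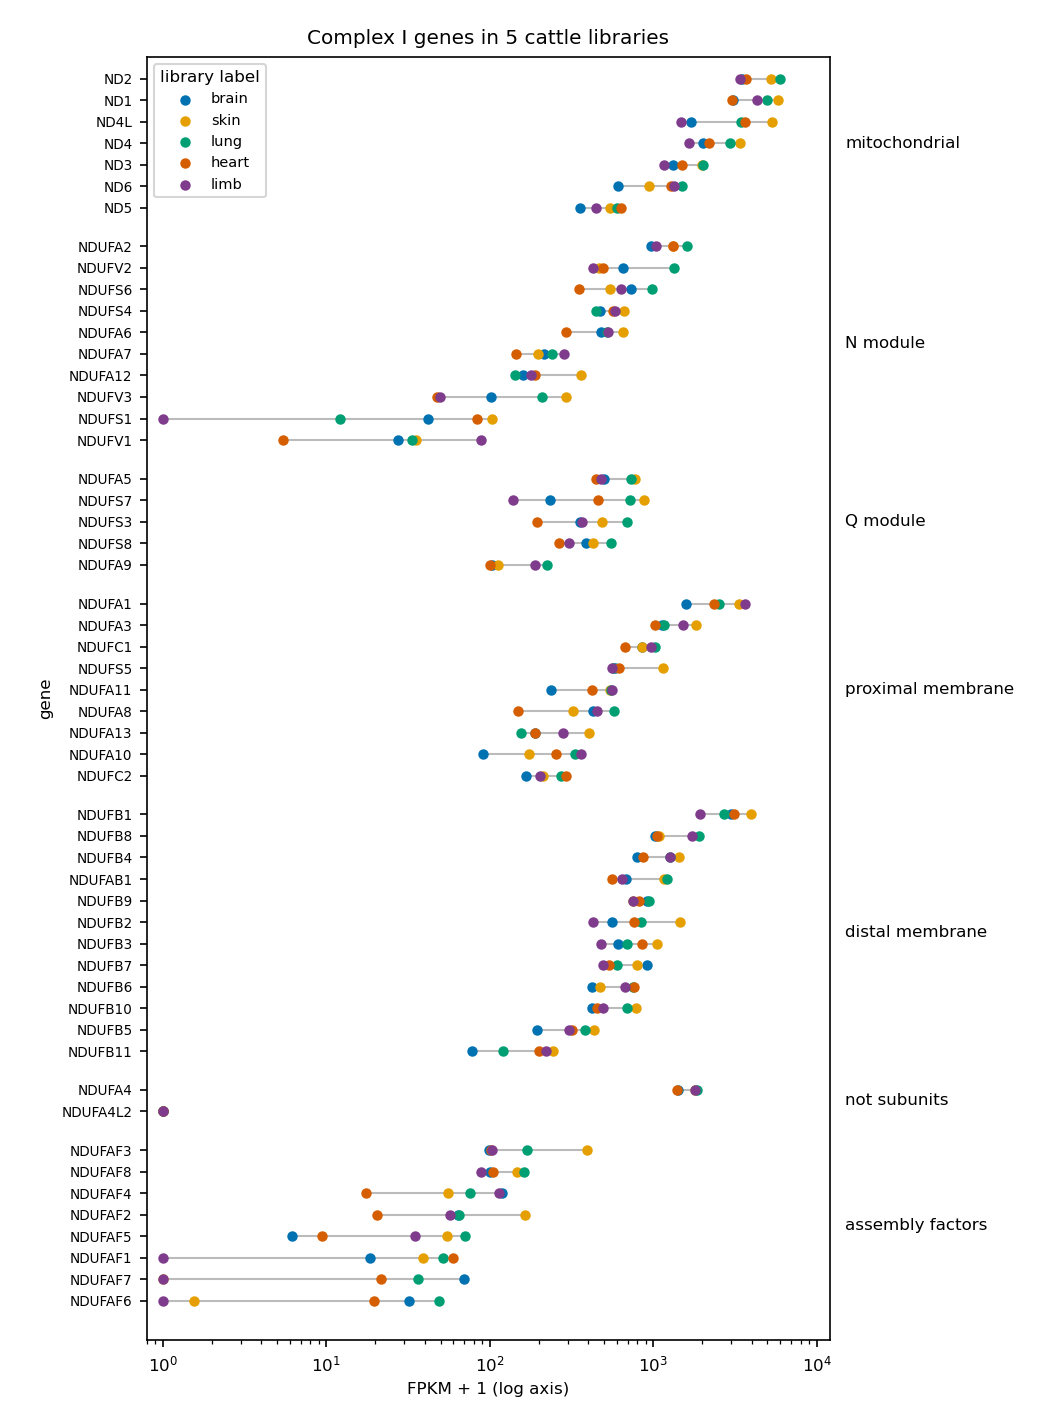
Level of complex I genes in the 5 libraries. Each row is a gene, grouped by its place in the enzyme and sorted by its mean. Each point is 1 library, on a log axis of FPKM + 1, and the grey line joins the lowest and the highest. Mitochondrial genes sit at the right and assembly factors at the left. NDUFS1, NDUFAF1, NDUFAF6 and NDUFAF7 have points at 1, where a gene is listed at 0, and NDUFA4L2 has all its points there.

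The N module, the tip of the peripheral arm, was uneven in level. NDUFV1, the core subunit that binds NADH and the flavin, was the lowest of the 37 nuclear subunits, at 26.4, 34.6, 32.6, 4.40 and 87.1 FPKM. It was low in the heart-labelled and highest in the limb-labelled library. NDUFV2, its partner with an iron-sulfur cluster, stood at 652, 466, 1340.0, 495 and 427 FPKM, highest in the lung-labelled library. The ratio of NDUFV2 to NDUFV1 was 24.7, 13.5, 41.2, 112 and 4.91, so it ran widely. The 112 rests on the 4.40 FPKM of NDUFV1, and 19.1% of the values above 0 in that library were under 5 FPKM. The protein complex holds 1 copy of each, but these are RNA ratios per length and do not measure protein. NDUFS1, the largest core subunit and the carrier of several iron-sulfur clusters, stood at 41.0, 102, 11.1, 83.2 and 0 FPKM. It was highest in the skin-labelled library, low in the lung-labelled one and listed at 0 in the limb-labelled one. NDUFV3, an accessory subunit of the tip, stood at 101, 292, 209, 46.9 and 48.5 FPKM, highest in the skin-labelled and low in the heart- and limb-labelled libraries.

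The other accessory subunits of the N module had higher means and narrower ranges over the libraries than NDUFV3. NDUFA2, a small thioredoxin-fold subunit, was the highest of the module, at 967, 1323, 1606, 1318 and 1035 FPKM. NDUFS4, which helps to fix the N module on the arm and whose loss causes Leigh syndrome, stood at 473, 667, 449, 564 and 585 FPKM, with the highest value 1.48 times the lowest. NDUFS6, a zinc-binding subunit needed for late assembly, stood at 732, 541, 987, 350.1 and 637 FPKM and was highest in the lung-labelled and lowest in the heart-labelled library. Means of NDUFA6, NDUFA7 and NDUFA12 were 495, 216 and 206 FPKM. NDUFA6 and NDUFA7 were lowest in the heart-labelled library, at 292 and 143 FPKM, and NDUFA12 was highest in the skin-labelled library, at 360.3 FPKM.

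In the Q module, which hands electrons to ubiquinone, 4 of the 6 genes were highest in the lung-labelled and 4 were lowest in the heart-labelled library. Of the abundant genes, 28.6% were highest in the former and 22.4% lowest in the latter. NDUFS3, a core subunit that forms an early assembly intermediate, stood at 356, 486, 686, 195 and 368 FPKM. NDUFS8, which carries a pair of iron-sulfur clusters, stood at 388, 429, 550.1, 263 and 303 FPKM. NDUFS7, which holds the last cluster of the chain, had the widest range of the module, at 232, 879, 723, 459 and 139 FPKM, high in the skin- and lung-labelled and lowest in the limb-labelled library, a ratio of 6.34. NDUFA5 was the highest of the module by mean and NDUFA9, an NAD(P)H-binding accessory subunit, the lowest. They stood at 502, 779, 729.9, 446 and 478 FPKM and at 102, 112, 222, 99.2 and 189 FPKM. The order of the libraries thus differed between subunits of 1 module: NDUFA5 was highest in the skin-labelled library and NDUFA9 in the lung-labelled one.

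The proximal part of the membrane arm joins the pumps to the peripheral arm. NDUFA1, a small subunit with 1 membrane helix, encoded on the X chromosome in mammals, was the highest of the 9 genes there, at 1581, 3344, 2545, 2350.4 and 3663 FPKM. It was highest in the limb-labelled and lowest in the brain-labelled library. NDUFA10 and NDUFA11 had the same highest and lowest library. NDUFA10, a nucleoside kinase-like subunit, stood at 89.5, 172, 331, 255 and 362 FPKM and NDUFA11, which anchors the complex in supercomplexes, at 237, 541, 553, 425 and 558 FPKM. NDUFA8, NDUFS5 and other subunits with paired cysteines are imported into the intermembrane space. NDUFA8 stood at 426, 321, 574, 147 and 452 FPKM, lowest in the heart-labelled library, and NDUFS5 at 586, 1154, 565, 615 and 562 FPKM, highest in the skin-labelled library. NDUFA13 (also GRIM-19) was likewise highest there, at 189, 401, 154, 188 and 281 FPKM. NDUFA3 and NDUFC1 had means of 1340.4 and 875 FPKM and ratios of the highest to the lowest library of 1.78 and 1.53. NDUFC2 was the lowest of the 9 by mean, at 228 FPKM.

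The distal part of the membrane arm had the highest median of means of the 4 nuclear classes, 773 FPKM, with medians of 644, 928, 792, 762 and 571 FPKM. Of its 12 genes, 7 were highest in the skin-labelled library, beside 26.7% of the abundant genes. NDUFB1, a small single-helix subunit, was the highest of all 37 nuclear subunits by mean, at 2992, 3978, 2704, 3114 and 1926 FPKM. NDUFB2 and NDUFB3, also small, were highest in the skin-labelled and lowest in the limb-labelled library. They stood at 559, 1456, 836, 761 and 429 FPKM and at 609.5, 1055, 695, 853 and 476 FPKM. NDUFB9, which contains an LYR motif, had the narrowest range of all subunits, at 919.9, 754, 945, 820.0 and 749.7 FPKM, a ratio of 1.26. NDUFB7, an intermembrane-space subunit, was highest in the brain-labelled library, at 912, 801, 597, 534 and 490.1 FPKM, as 1 of 37 nuclear subunits and 1 of 2 after either rescaling described below. NDUFB11, another subunit with an X-linked gene in mammals, was the lowest of the 12, at 76.6, 245, 120.2, 198 and 219.6 FPKM, lowest in the brain-labelled library.

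NDUFAB1, the mitochondrial acyl carrier protein, also serves fatty acid synthesis and binds LYR-motif subunits. It stood at 679, 1159, 1208, 562 and 648 FPKM, high in the skin- and lung-labelled libraries. NDUFB4, NDUFB5, NDUFB6, NDUFB8 and NDUFB10, all membrane subunits, had means of 1125, 326, 616, 1357 and 567 FPKM. All 5 were lowest in the brain-labelled library, with values there of 795, 193, 424, 1029.5 and 419 FPKM. With NDUFB11 they were 6 of the 12 distal genes, beside 16.6% of the abundant genes lowest there. NDUFB8 was nearly as low in the heart- and skin-labelled libraries, at 1054 and 1082 FPKM.

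The mitochondrially encoded subunits form the membrane core. ND1, which sits at the quinone channel, stood at 3099.5, 5771, 4976, 3032 and 4341 FPKM. ND2 and ND4, antiporter-like proton pumps, stood at 3511, 5282, 5982, 3703 and 3409 FPKM and at 2011, 3381, 2945, 2203 and 1655 FPKM. ND3, at the hinge between the arms, stood at 1328, 1996, 2025, 1501 and 1163 FPKM. All 4 were higher in both the skin- and the lung-labelled library than in each of the other 3. ND5, the most distal pump, was the lowest of the 7, at 355, 540.0, 599, 631 and 447 FPKM, and ND6 stood at 607, 946, 1506, 1285 and 1341 FPKM. These 2 had another order: ND5 was highest in the heart-labelled library, and ND6 was higher in the lung-, limb- and heart-labelled libraries than in the skin-labelled one. ND6 is the only one of the 7 that mammalian mitochondria encode on the light strand. ND4L, the smallest, had the widest range, at 1703, 5316, 3433, 3623 and 1489 FPKM, a ratio of 3.57.

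ND4L and ND4 are neighbours in the mitochondrial genome, as are ND5 and ND6, and ND4L shares a transcript with ND4. The ratio of ND4L to ND4 was 0.85, 1.57, 1.17, 1.64 and 0.90 and that of ND6 to ND5 was 1.708, 1.752, 2.515, 2.037 and 3.004, so neither pair kept a constant ratio across the libraries. No source used here says whether the reads keep their strand. How overlapping reads were divided between these genes therefore cannot be told. Nuclear copies of mitochondrial DNA and processed copies of short NDUF genes can also share reads with the genes named here.

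Summed over the 7 genes, ND transcripts stood at 12614, 23232, 21465, 15979 and 13845 FPKM, or 1.18, 1.99, 1.83, 1.45 and 1.23% of the summed FPKM. The skin-labelled library was 1.84 times and the lung-labelled library 1.70 times the brain-labelled one. The other 6 mitochondrially encoded mRNAs, COX1, COX2, COX3, CYTB, ATP6 and ATP8, differed less between the same libraries, 1.22 and 1.24 times. ND genes accordingly made up 24.3, 32.7, 30.6, 27.7 and 28.8% of the summed FPKM of the 13 mitochondrially encoded mRNAs. The share was lowest in the brain-labelled and highest in the skin-labelled library also without ND4L, at 21.7% and 27.3%. Among the other mRNAs, CYTB of complex III ranged by a ratio of 1.15 and COX1 of complex IV by 1.204. COX3 and ATP6 each had their 2 highest values in the skin- and lung-labelled libraries, as ND1 to ND4 did.

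**Figure D2:**
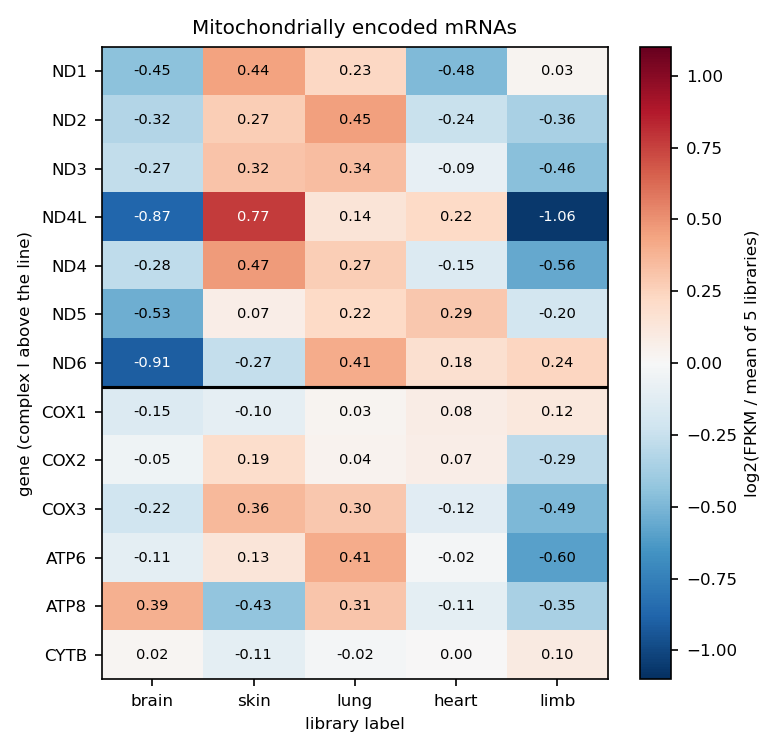
The 13 mitochondrially encoded mRNAs in the 5 libraries. Each cell gives the log2 ratio of a gene's FPKM to its own mean over the 5 libraries, red above and blue below the mean, with complex I genes above the line. All 7 complex I genes are below their mean in the brain-labelled and above it in the lung-labelled library, and CYTB stays between -0.11 and 0.10.

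NDUFA4, first described with complex I and now assigned to cytochrome c oxidase, was high and steady at 1421, 1805, 1847, 1406 and 1791 FPKM, a ratio of 1.31. NDUFA4L2, its paralog known for induction by hypoxia, was listed at 0 in all 5 libraries.

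The assembly factors were lower and less regularly found than the subunits. All 8 had a mean between 19.7 and 172 FPKM, and 5 of the 8 were above 0 in every library, beside 40.6% of all genes with a mean of 10 to 200 FPKM. NDUFAF3, which binds the Q module with NDUFAF4, was the highest by mean, at 97.6, 391, 167, 101 and 102 FPKM, with its top value in the skin-labelled library. NDUFAF4 itself stood at 118, 54.3, 74.5, 16.5 and 113 FPKM, highest in the brain- and limb-labelled libraries and lowest in the heart-labelled one. These partners thus did not share an order of libraries. NDUFAF8, a partner of NDUFAF5, was the steadiest, at 99.4, 145, 161, 103 and 87.1 FPKM, a ratio of 1.85. NDUFAF5, which hydroxylates NDUFS7, stood at 5.21, 53.9, 69.6, 8.42 and 33.8 FPKM, and NDUFAF2, which stands in for NDUFA12 during assembly, at 63.3, 163, 64.2, 19.5 and 56.5 FPKM. NDUFAF2 was lowest in the heart-labelled library, and NDUFAF5 was low in both the brain- and the heart-labelled ones.

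The remaining factors were each listed at 0 somewhere. NDUFAF1, which acts on the membrane intermediate, stood at 17.6, 38.3, 50.8, 58.5 and 0 FPKM. NDUFAF7, a methyltransferase, stood at 68.5, 0, 35.2, 20.6 and 0 FPKM. NDUFAF6, the lowest by mean, stood at 31.1, 0.55, 48.3, 18.7 and 0 FPKM. All 3 were listed at 0 in the limb-labelled library, NDUFAF7 was listed at 0 in the skin-labelled one and NDUFAF6 was under 1 FPKM there. These are the 2 libraries with the fewest genes above 0, 5319 and 5109, and the part of depth in these zeros was not tested.

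Assembly factors without an NDUF name showed the same kind of gaps. Of 13 such genes, 4 were above 0 in all 5 libraries, 8 in some and TMEM186 in none. DMAC1, a factor for the distal membrane part, was the highest, at 249, 348, 148, 308 and 451 FPKM, and TMEM126B of the membrane assembly complex stood at 106, 91.6, 236, 161 and 222 FPKM. ACAD9, a partner of NDUFAF1, was found in the lung-labelled library alone, where it stood at 12.2 FPKM. NUBPL, which delivers iron-sulfur clusters to complex I, was found in the brain-labelled one alone, where it stood at 30.6 FPKM. Of 14 genes that build mitochondrial iron-sulfur clusters, 7 were above 0 in all 5 libraries. The late-acting carrier NFU1 was the highest, at 151, 312, 409.6, 216 and 298 FPKM, and the scaffold ISCU stood at 179, 246, 146, 174 and 208 FPKM. In the skin-labelled library 7 of the 14 were above 0, against 12 in the lung-labelled one, beside 5109 and 5991 of all genes, with medians of 3.98 and 123 FPKM.

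Where each subunit was highest and lowest was counted next. Of the 37 nuclear subunits, 17 were highest in the skin-labelled and 12 in the lung-labelled library, where 26.7% and 28.6% of the abundant genes had their highest value. The limb-, heart- and brain-labelled libraries held the highest value of 5, 2 and 1 of them, beside 16.7%, 11.9% and 16.1% of those genes. As to the lowest value, 13 subunits had it in the heart-labelled library, 11 in the brain-labelled, 9 in the limb-labelled, 3 in the lung-labelled and 1 in the skin-labelled one. The corresponding shares of all genes at that level were 22.4%, 16.6%, 20.7%, 20.2% and 20.2%. After each library was rescaled by its median ratio, 17 nuclear subunits were highest in the skin-labelled and 10 in the lung-labelled library, while 9, 5 and 2 were lowest in the heart-, lung- and skin-labelled ones. That rescaling took log2 shifts of 0.10, 0.13, 0.14, -0.060 and 0.063 off the libraries. After the libraries were given equal totals without the mitochondrially encoded mRNAs, 3 were lowest in the skin-labelled library. Of the 7 mitochondrial subunits, the skin- and the lung-labelled library each held the highest value of 3 and the heart-labelled one of 1. Their lowest value lay in the limb-labelled library for 4, in the brain-labelled for 2 and in the heart-labelled for 1, or 0 after the median ratio rescaling.

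In direct pairs, 30 of the 37 nuclear subunits were higher in the skin- than in the brain-labelled library, by a median ratio of 1.41, where 51.1% of the abundant genes were higher. Against the heart-labelled library, 31 of the 37 were higher in the skin-labelled one, by a median of 1.42, beside 57.8% of those genes. The lung-labelled library was above the brain-labelled one for 30 of 37, by a median of 1.45, beside 52.7%. It was above the heart-labelled one for 27 of 37, by a median of 1.30, beside 58.2%. The skin- and lung-labelled libraries were close to each other, with 20 of 37 higher in the former, a median ratio of 1.07 and 49.5% of the genes at that level. So were the brain- and heart-labelled ones, with 18 of 37 higher in the former, a median of 0.98 and 55.7% of those genes. These pairs share libraries and are not independent of each other. All 7 mitochondrial subunits were higher in both the skin- and the lung-labelled than in the brain-labelled library, by medians of 1.56 and 1.68.

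Each library was also set against the mean of the other 4 on the log2(FPKM + 1) scale. In the brain-labelled library the median difference was -0.25 for nuclear and -0.51 for mitochondrial subunits, with 27 of 37 and 7 of 7 lower. The abundant genes had a median of 0.09, with 55.2% of them higher. In the skin-labelled library the medians were 0.46 and 0.44, with 25 of 37 and 6 of 7 higher, beside 0.13 and 56.0% for the genes at that level. ND6 was the exception. In the lung-labelled library they were 0.35 and 0.40, with 26 of 37 and 7 of 7 higher, beside 0.21 and 58.1%. In the heart-labelled library nuclear subunits had a median of -0.35, with 25 of 37 lower, beside -0.12 and 43.9% higher. The mitochondrial median there was -0.07 and became 0.096 after rescaling by the median ratio, so no direction is given for it. In the limb-labelled library mitochondrial subunits had a median of -0.40, with 5 of 7 lower, and nuclear subunits one of -0.07, with 18 of 37 higher. The limb-labelled nuclear median became 0.077 without the skin-labelled library in the reference and 0.057 without the lung-labelled one, so it has no direction either. The genes at that level had a median of 0.01 there, with 50.4% higher. The choice of reference moved other medians too. The nuclear median of the brain-labelled library was -0.10 with the skin-labelled and -0.43 with the heart-labelled library left out, and that of the heart-labelled library was -0.22 without the skin-labelled one. The mitochondrial median of the limb-labelled library was -0.26 without the lung-labelled one.

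The modules did not all follow these medians. In the lung-labelled library all 6 Q module genes were above the mean of the other 4, with a median of 0.78, against 0.30 for the N module, 0.31 for the proximal and 0.24 for the distal membrane part. In the limb-labelled library 7 of 9 proximal genes were higher, with a median of 0.38, while 8 of 12 distal genes were lower, with a median of -0.19. In the brain-labelled library 9 of 12 distal and 8 of 9 proximal genes were lower, with medians of -0.46 and -0.34. These signs were the same after either rescaling. The N module had no clear side in the brain-labelled library, where its median was -0.032 after rescaling by the median ratio and 0.078 after rescaling to an equal total. In the heart-labelled library the N and Q modules had medians of -0.54 and -0.51, with 7 of 10 and 5 of 6 genes lower. After rescaling by the median ratio these medians were -0.37 and -0.34, with 4 of 10 and 1 of 6 genes higher. Of the 12 distal genes, 6 were higher there, and 7 after either rescaling. As deposited, 43.9% of the abundant genes were higher in that library. Differences between modules carry no test, since genes are not replicates of a library. For the 8 NDUFAF factors the lung-labelled library had all 8 above the mean of the other 4, with a median of 1.22. That value was 0.29 over the 4 factors averaging 50 FPKM or more and 0.60 without the limb-labelled library in the reference, so its size rests on genes that are low or listed at 0 elsewhere.

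**Figure D3:**
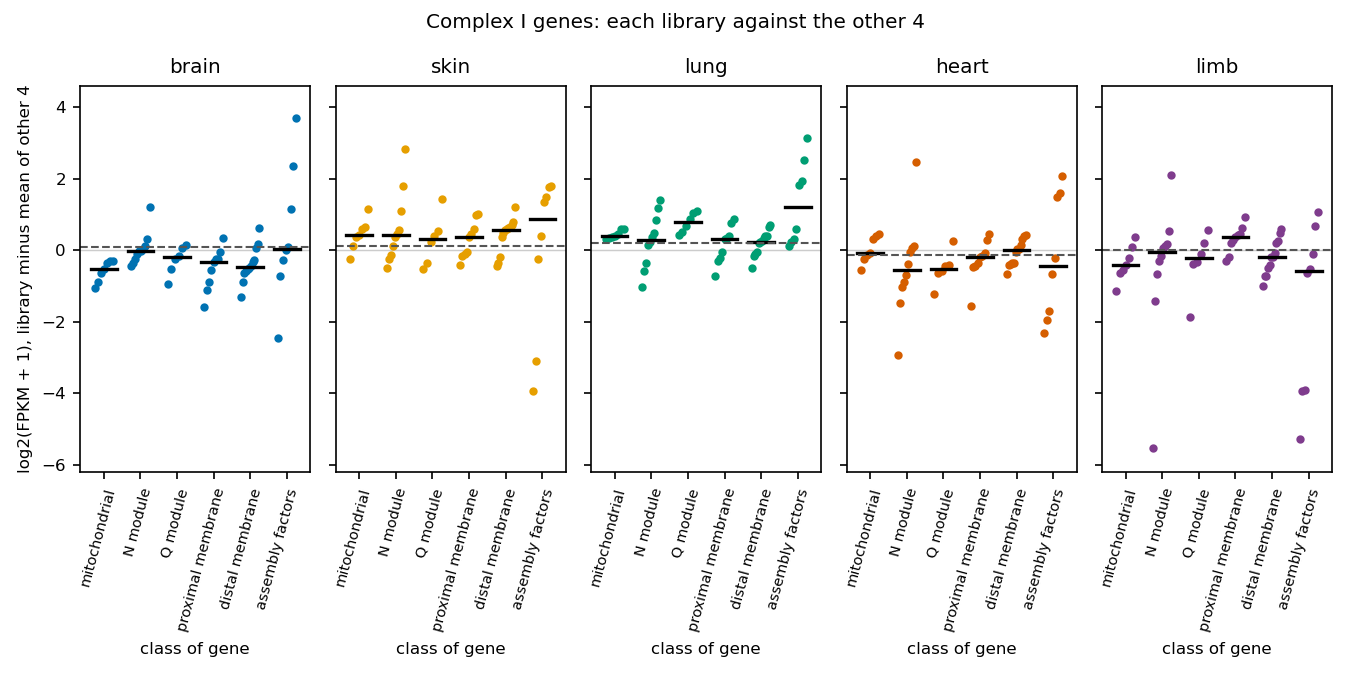
Difference of each complex I gene in a library from its mean in the other 4 libraries, on the log2(FPKM + 1) scale, 1 panel per library. Points are genes, black bars the median of each class, and the dashed line the median of the abundant genes. Mitochondrial and membrane-arm genes lie mostly below the dashed line in the brain-labelled library and Q module genes above it in the lung-labelled one, while assembly factors scatter widely.

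Strong single-library differences were few. A gene counted as enriched in a library if its value there reached 10 FPKM and, after 1 was added to all values, was 4 times or more the next highest. It counted as depleted in a library if every other library reached 10 FPKM and lay 4 times or more above it on the same scale. Over the 5 libraries, 0 of 256 possible calls for complex I genes were enriched, beside 8.52% of those for all genes, and 3 of 238 were depleted, beside 8.19%. The 3 were NDUFV1 in the heart-labelled library, where 4.27% of all possible calls were made, and NDUFS1 and NDUFAF1 in the limb-labelled one, where 11.2% were. These shares of all genes were not matched to the level of complex I genes, most of which were abundant. With the skin-labelled library left out of the reference and not called itself, there were 6 depleted calls. With 5 FPKM added in place of 1 there was 1. In the 10 pairs of libraries, 42 of 527 comparisons of a complex I gene passed a ratio of 4, beside 48.1% for all genes. Among abundant genes it was 7 of 450 for complex I and 13.4% for all. Assembly factors gave 25 of the 42, out of 77 comparisons, beside 46.2% for genes with a mean of 10 to 200 FPKM. Nuclear subunits gave 17 of 370, of which 14 were in the N module, through NDUFS1, NDUFV1 and NDUFV3, and mitochondrial subunits gave 0 of 70.

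The range of a gene over the 5 libraries was taken as its highest over its lowest FPKM + 1. Among abundant genes, the median range was 2.15 for 35 nuclear subunits, 1.90 for the 7 mitochondrial subunits and 3.20 for all 1358 genes. A range under 2 was found for 20 of the 45 abundant complex I genes, beside 19.3% of all abundant genes. A range of 4 or more was found for 3 of the 35 nuclear subunits, NDUFS7 (6.30), NDUFV3 (6.11) and NDUFA10 (4.01), beside 39.2% of all abundant genes. Range falls with level, so the comparison was repeated within levels. Between 200 and 1000 FPKM, 25 nuclear subunits had a median range of 2.21 and 608 genes one of 2.96. A range of 4 or more was found for 2 of the 25, beside 31.7% of the 608. At 1000 FPKM or more, 6 nuclear subunits had a median of 1.82 and 218 genes one of 1.98. A range under 2 was found for 9 of the 25 and 4 of the 6, beside 18.8% and 52.3% of genes at those levels. All mitochondrial subunits but ND5 averaged more than 1000 FPKM, so their median of 1.90 was close to that of genes at their level. The 2 nuclear subunits left out for their low mean, NDUFV1 and NDUFS1, had the widest ranges. The narrowest were NDUFB9, NDUFA4, NDUFS4, NDUFC1 and NDUFA2, with ratios of 1.26, 1.31, 1.48, 1.53 and 1.66.

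**Figure D4:**
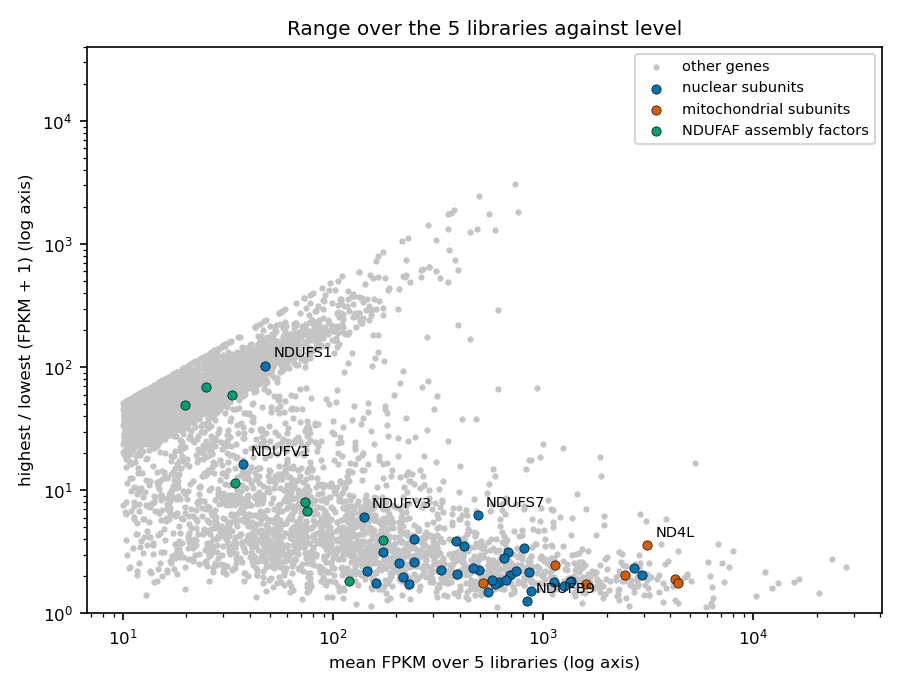
Range over the 5 libraries against mean level for all genes averaging 10 FPKM or more, both on log axes. Each point is a gene, with nuclear subunits in blue, mitochondrial subunits in orange and NDUFAF factors in green. Most subunits lie in the lower part of the cloud, other genes are grey, and NDUFS1, NDUFAF1, NDUFAF6 and NDUFAF7 lie in the upper band of genes listed at 0 in at least 1 library.

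The levels of the subunits relative to each other were largely kept. Across the 35 abundant nuclear subunits, Spearman's rho between 2 libraries lay between 0.77 and 0.90 over the 10 pairs, against 0.59 to 0.77 across the 1313 other abundant genes. These are correlations across genes, which are not independent replicates, and each gene brings its own transcript length to both libraries. Among nuclear subunits the level spanned a ratio of 79.5 between the means of NDUFB1 and NDUFV1, on the per-length scale. That ratio ran from 22.1 in the limb-labelled to 708 in the heart-labelled library, where NDUFV1 stood at only 4.40 FPKM. Of the 7 nuclear core subunits, NDUFV2 was the highest and NDUFV1 the lowest. The median of the means was 387 FPKM for the core and 601 FPKM for the 30 accessory subunits.

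Genes around the complex were read for comparison. Among 17 nuclear subunits of complexes III and IV, 16 were above 0 in all 5 libraries. In the skin-labelled library 16 of the 17 were above the mean of the other 4, with a median of 0.54, and in the lung-labelled one 9 of 17, with a median of 0.08, which became -0.010 after rescaling by the median ratio. No test of the difference between complexes was possible with 1 library per label. Of 11 genes of mitochondrial transcription and mRNA stability, 6 were above 0 in all 5 libraries. The highest was SLIRP, which stabilises mitochondrial mRNAs together with LRPPRC, at 1344, 1645, 1603, 1613 and 1452 FPKM, while LRPPRC stood at 45.1, 24.6, 41.5, 19.0 and 17.6 FPKM. The SLIRP values lay closer together than those of each ND gene. POLRMT, the mitochondrial RNA polymerase, stood at 0, 0, 11.6, 0.57 and 0 FPKM. Of 8 nuclear regulators of respiratory genes, NRF1, PPARGC1A and PPARGC1B were listed at 0 in all 5 libraries. YY1, at 27.5, 18.5, 14.2, 2.26 and 14.6 FPKM, was the only one above 0 in all of them.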

How the data were processed

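Gene expression was measured in 5 libraries, 1 for each label. The authors deposited 1 table of 27607 genes, per the file headers with Ensembl identifiers and symbols. Per the submitters' processing notes, bcl2fastq, STAR and RSEM were used with the ARS-UCD1.2 build, and no source used here gives versions, annotation or filters. The deposited values were taken as FPKM by elimination, since no source names the unit: at most 1.27% of a library's values above 0 were whole, and each column summed to more than CPM or TPM can. FPKM assumes even coverage of a transcript, and no source says which part the reads cover. Depth in reads is unknown. Ratios between libraries were searched for steps of single reads, and at any relative depth tried at most 275 of 3557 genes at 2 to 200 FPKM lay on steps of small whole numbers (to within 0.3%), too few to recover counts.

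Symbols are those of the table. None of its identifiers was found in RefSeq's ARS-UCD2.0 table, which was used only for the order of mitochondrial genes, so no coordinates or sequences are given. Values were used as deposited, with Python 3.11.15 and pandas 2.3.3. Calls, pairwise ratios and ranges were taken after adding 1 FPKM, and ratios given with single modules from the values as deposited. Rescaling by the median ratio divided each library by its median ratio to the gene-wise geometric mean of the 2607 genes above 0 in all 5 libraries. The rules for enriched and depleted genes were tested on simulated data with planted changes and little other spread. Such a test checks how the rules were coded and not how often they miscall genes in these libraries. Medians of differences used genes averaging 1 FPKM or more. One member is counted in the groups but its own values are not reported here. The others may be named, with values for the highest and lowest of each class, called genes, genes at 0 in some libraries and the widest and narrowest ranges. Non-members come from lists, of which COX6C, COX7C and LOR were not among the symbols. The rule for members and the lists use names only, but both were settled with earlier results of these data known. Alternatives were other minimums, ratios and pseudocounts, 2 rescalings, and leaving single libraries out of the reference.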

Additional observations from a re-analysis of the deposited data

How the results depend on the processing

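Each label had 1 library, so differences carry no error and the number of reads behind a value is unknown. No paired analysis was possible because each label has 1 library, so the labels share 1 replicate number, which here only names the library. Library names below are labels. With a ratio of 2, enriched calls were 4, depleted calls 6 and pairwise calls 128. Depleted calls were 0 with a minimum of 50 FPKM, 1 with 5 FPKM added, and 3 to 6 with 1 library left out of the reference, 6 being without the skin library. In these counts the library left out was not called either, so equal counts need not be the same genes. Leaving 1 of the other libraries out of the reference at a time, the median log2 difference of nuclear subunits ran from -0.43 to -0.10 (brain), 0.37 to 0.58 (skin), -0.38 to -0.22 (heart) and -0.13 to 0.077 (limb). That of mitochondrial subunits ran from -0.56 to -0.38 (brain), 0.33 to 0.59 (skin), 0.35 to 0.60 (lung), -0.22 to 0.045 (heart) and -0.52 to -0.26 (limb), and that of NDUFAF assembly factors from -0.17 to 0.48 (brain), 0.16 to 1.26 (skin), 0.60 to 1.2 (lung), -0.61 to -0.17 (heart) and -0.75 to -0.32 (limb), so the last has no direction in the brain library. The NDUFAF median over genes averaging 50 FPKM or more was -0.082 (brain), 1.09 (skin), 0.29 (lung), -1.30 (heart) and -0.30 (limb). The NDUFAF median against the median of the other 4 was -0.11 (brain), 0.43 (skin), 0.82 (lung), -0.29 (heart) and -0.42 (limb). The NDUFAF median after the median ratio rescaling was -0.26 (heart). The NDUFAF median with 0.1 FPKM added was 0.45 (brain), 0.99 (skin) and 1.32 (lung). The NDUFAF median with 5 FPKM added was -0.094 (brain), 0.59 (skin) and 0.91 (lung). The median of nuclear subunits after the median ratio rescaling was -0.18 (heart). The median of mitochondrial subunits against the median of the other 4 was 0.55 (skin). The median of mitochondrial subunits after the median ratio rescaling was 0.096 (heart). Summed ND levels after the median ratio rescaling were 11763 (brain), 21219 (skin) and 19418 (lung) FPKM. The median range of members averaging 10 FPKM or more was 2.23. Apart from the alternatives named next, the other 142 recomputed values moved by at most 0.1 on the log2 scale, or, for counts, by at most 1.5 times. Alternatives for the library of the highest or lowest value, for shares and for sums of nuclear subunits were chosen after the data were seen. Of these, 25 moved by more than those limits and 30 did not. Without COX3, for example, the share of ND genes among mitochondrially encoded mRNAs was 32.7% (brain) and 45.4% (skin).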
